A study of Sus scrofa with 22 samples.

Results

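The genes of oxidative phosphorylation were followed, complex by complex, in blood mononuclear cells of pigs. A probe set, which is the group of short oligonucleotides that reads 1 transcript, was a member if it carried exactly 1 gene symbol, and that symbol began with NDUF, UQCR, ATP5 or COX4 to COX8, or was SDHA, SDHB, SDHC, SDHD or CYC1. This gave 80 probe sets for 63 genes, of 6765 genes with a single symbol on the array. Where a gene had several probe sets (14 genes), the one with the highest mean over all arrays stood for it. Of the 63 genes, 32 encode complex I subunits, 4 complex II, 2 complex III, 8 complex IV and 13 complex V, and the other 4 are 3 complex I assembly factors (NDUFAF1, NDUFAF2, NDUFAF3) and ATP5S, coupling factor B. NDUFA4 carries a complex I name but was counted with complex IV, where the protein is now placed. CYC1, the COX4 genes and the complex III core subunits were not analysed here.

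The samples were 22 arrays from 20 mini pigs, 1 array per blood sample. The first group was sampled at time 0, before the diets, and its 5 females and 5 males are labelled as controls on normal chow. The other 3 groups were sampled after 9 months and had 2 females and 2 males each. Of these, the control pigs ate chow with 5% beef tallow and the high-fat pigs chow with 20%. The resveratrol pigs ate the 20% chow and were given resveratrol, a plant polyphenol, at a daily dose of 8 mg/kg. Female 8 and male 25 were measured at time 0 and again as controls at 9 months. Ages are not given in the labels, and the time of sampling and the age of the pigs cannot be told apart.

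Oxidative phosphorylation takes place in the inner membrane of the mitochondrion. Complex I (NADH dehydrogenase) and complex II (succinate dehydrogenase, which is also an enzyme of the citric acid cycle) pass electrons to ubiquinone, complex III passes them on to cytochrome c, and complex IV hands them to oxygen. Complexes I, III and IV pump protons as they do so, and complex V, the ATP synthase, uses the proton gradient to make ATP. Lymphocytes and monocytes draw on this pathway to different extents, and lymphocytes enlarge their mitochondrial capacity when they are activated to grow and divide. Most of the subunits, and all of the members here, are encoded in the nucleus. In whole mononuclear cells, a change in the proportion of cell types and a change of RNA per cell cannot be told apart.

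All values below are log2 of the deposited intensity, here called the level, and all differences are on that log2 scale. A difference counted as called at an adjusted p under 0.05 in limma, with Benjamini-Hochberg adjustment over the 17240 probe sets tested. All 63 members passed the filter on low values, with a level above 5 in all 22 arrays. Their mean levels ran from 5.77 for COX7A1, the heart and muscle isoform of a complex IV subunit, to 12.92 for ATP5E, the epsilon subunit of the ATP synthase. A level also reflects how well a probe set hybridises, so levels are not compared between genes.

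Several array-wide measures bear on the comparisons. Markers of T cells (10 measured) and monocytes (8 measured) were detected in every group, while granulocyte markers had a mean level between 5.11 and 6.68 in every array. The platelet marker mean of control female 8 at 9 months was 6.26, below the 7.98 to 9.78 of the other arrays. Poly-A spike-in controls, RNAs added to each sample before labelling, differed in level between arrays, and a split at the largest gap within each time gave 4 sets. Time 0 females 6 and 10 formed set A (9.12 and 9.15) and the other 8 time 0 arrays set B (7.58 to 7.85). At 9 months, 7 arrays formed set C (8.39 to 9.02) and 5 arrays set D (9.93 to 10.61). Set D held high-fat females 27 and 30, high-fat male 26, control male 25 and resveratrol female 21. The sets are therefore spread unevenly over the diets, and in part cannot be told apart from the high-fat chow. The split was made within each time, so no set could span both times. Sets and times therefore cannot be told apart, and the levels of set A lay nearest to those of set C.

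The mean over its subunits was lower at 9 months than at time 0 for each complex. For complex I it was 9.99 ± 0.13 (SD, n = 10) at time 0, 9.67 ± 0.05 (SD, n = 4) in the later controls, 9.71 ± 0.06 (SD, n = 4) in high-fat pigs and 9.73 ± 0.03 (SD, n = 4) in resveratrol pigs. All 12 arrays at 9 months, at 9.62 to 9.78, lay below the lowest time 0 array, at 9.80. For complex II the means were 10.45 ± 0.09, 10.15 ± 0.08, 10.04 ± 0.10 and 10.11 ± 0.06 in the same order, and again no array at 9 months reached the time 0 minimum of 10.33. Complex III (10.63 ± 0.19, 10.28 ± 0.16, 10.40 ± 0.13 and 10.39 ± 0.12), complex IV (10.57 ± 0.11, 10.39 ± 0.03, 10.47 ± 0.03 and 10.48 ± 0.05) and complex V (11.34 ± 0.10, 11.20 ± 0.02, 11.22 ± 0.05 and 11.22 ± 0.01) overlapped in part. Over all 63 members the mean was 10.26 ± 0.12 at time 0 and 9.99 ± 0.04 in controls at 9 months, so the arrays at time 0 were also the more spread out.

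**Figure D1:**
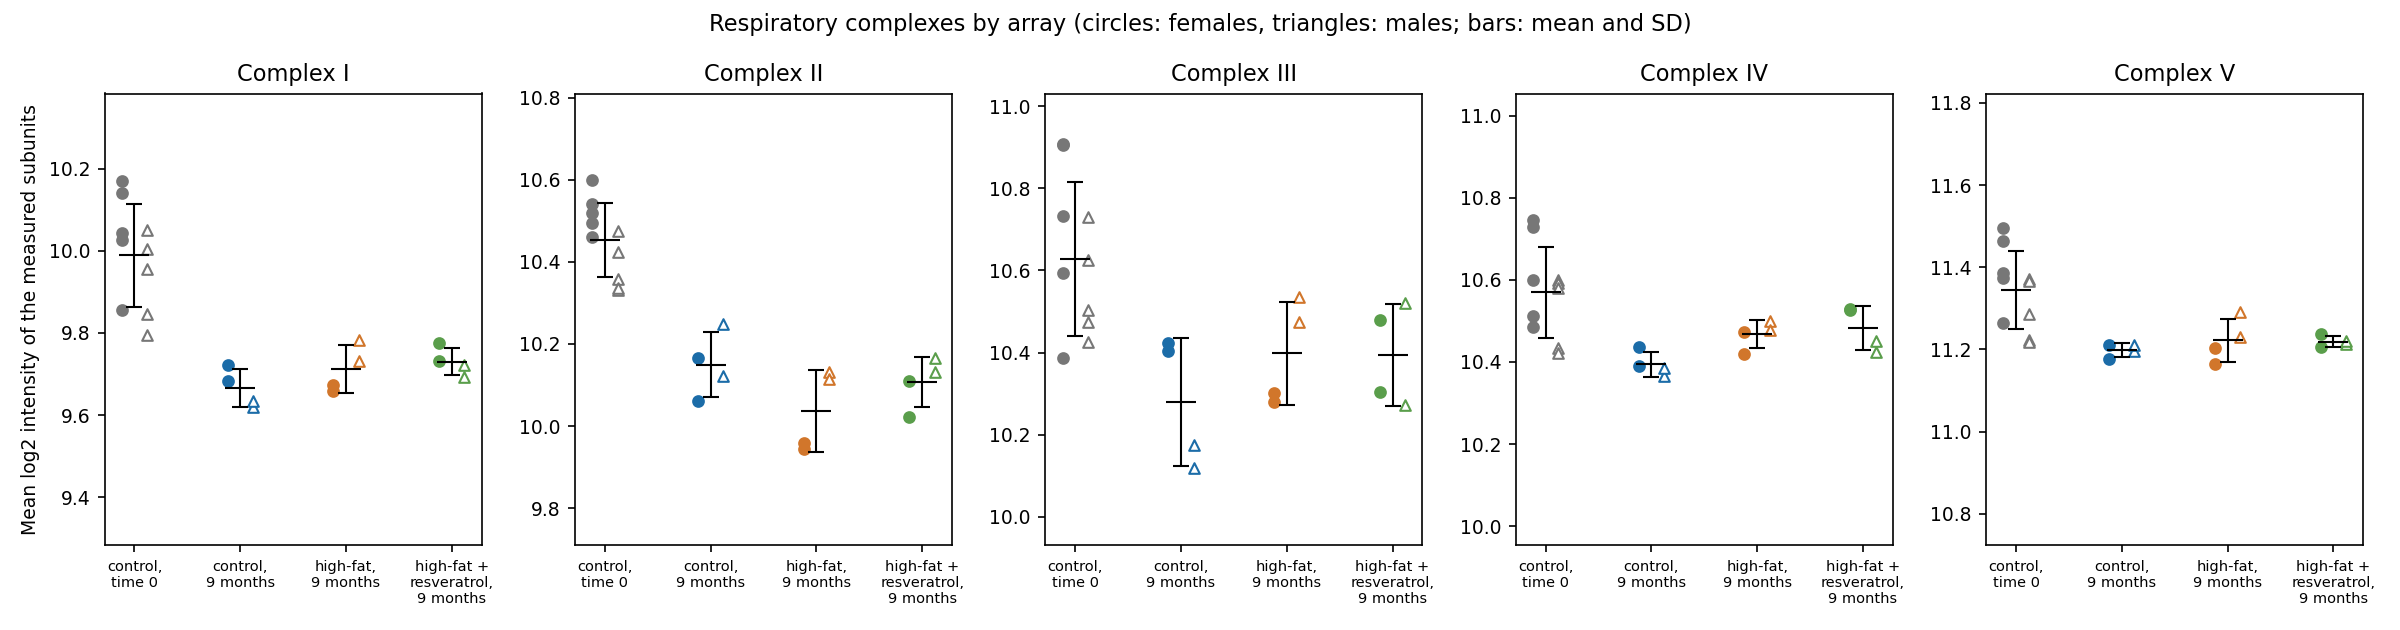
Mean log2 intensity over the measured subunits of each complex (y axis, a span of 1.1 log2 units in every panel) for each array in the 4 groups (x axis). Circles are females, triangles males, and bars the group mean and SD. For complexes I and II every array at 9 months lies below every array at time 0, while the groups of complexes III, IV and V overlap in part.

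Across the 4 conditions, 36 of the 63 members differed in limma's F test, against 39.1% of all probe sets tested. By complex these were 22 of 32 in complex I, 3 of 4 in complex II, 1 of 2 in complex III, 4 of 8 in complex IV and 3 of 13 in complex V, with 3 of the 4 associated genes. The members' share was 57.1%. Complex V, at 23.1% of its subunits, was the complex with the lowest share.

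From time 0 to 9 months in controls, 39 of the 63 members fell and 0 rose, while of all probe sets 35% were called, 19.1% lower and 15.8% higher. The members' median difference was -0.31, and that of all probe sets was -0.01. Complex I fell in 22 of 32 subunits (median -0.34), complex II in 3 of 4 (-0.36), complex III in 2 of 2 (-0.35), complex IV in 4 of 8 (-0.23) and complex V in 5 of 13 (-0.10). In 20 members all 4 control arrays at 9 months lay below all 10 arrays at time 0, a pattern that 8.64% of all probe sets showed. The reverse, all 4 above, occurred in 0 members and in 6.54% of probe sets. These were 12 subunits of complex I, 3 of complex II, 2 of complex IV, 2 of complex V and NDUFAF1. Over the members, the mean level and the difference were nearly unrelated (Pearson r -0.03 across 63 genes, which share the arrays). By mean level, 6 of 12 members fell below a level of 9 (17.1% of all probe sets there), 25 of 33 from 9 to 11 (27.8%) and 8 of 18 above 11 (23.2%).

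**Figure D2:**
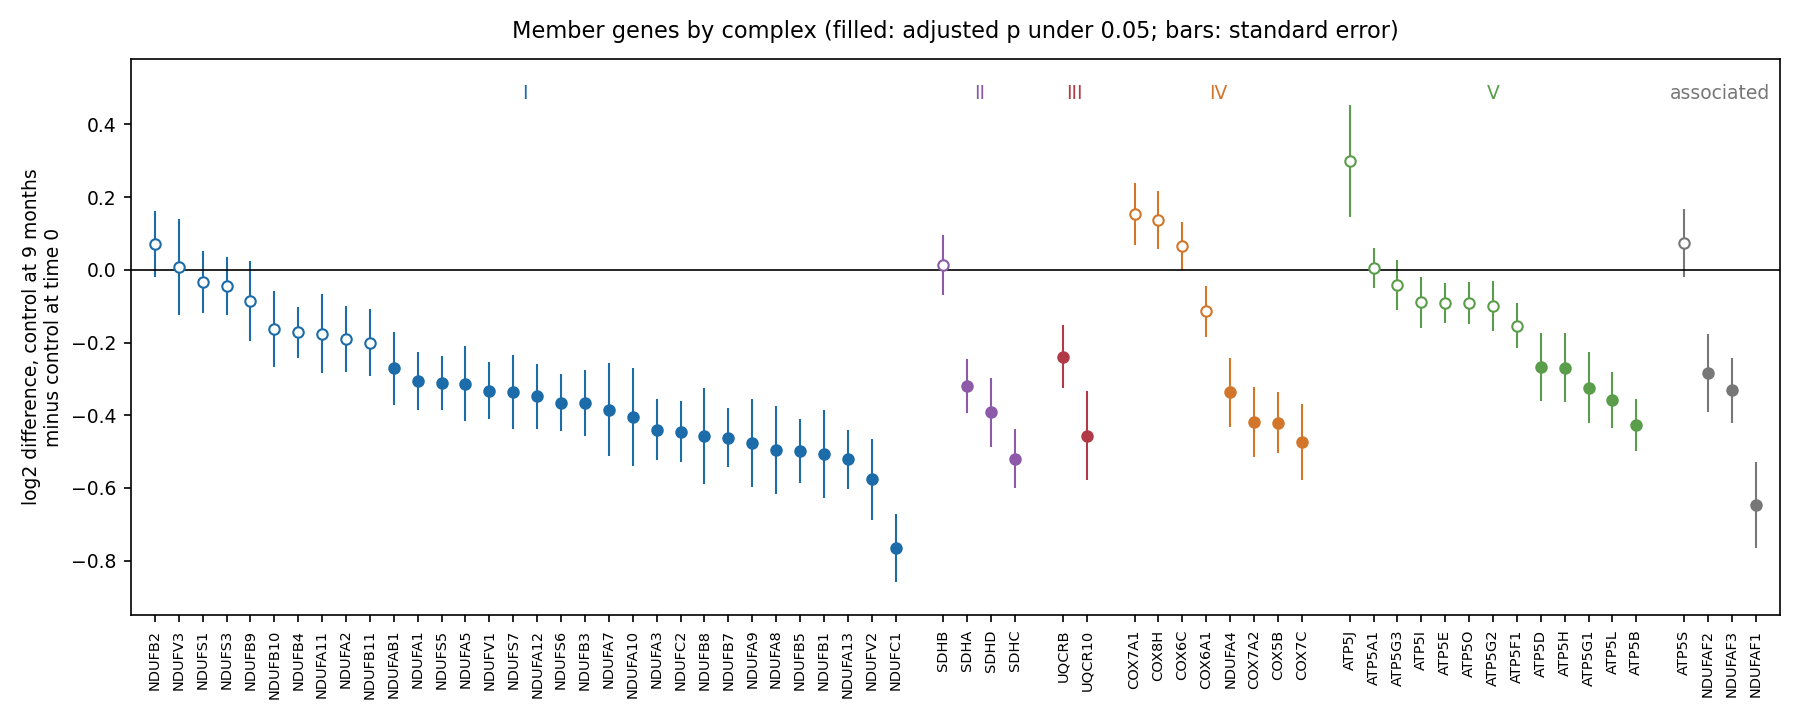
Log2 difference between controls at 9 months and at time 0 (y axis) for each of the 63 members, ordered by complex and by size (x axis), with the standard error as bars. Filled points have an adjusted p under 0.05. The 39 filled points all lie below 0. Of the open points 10 belong to complex I and 8 to complex V, where ATP5J, at 0.30, is the highest of all.

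In complex I, NDUFC1, a small accessory subunit of the membrane arm, fell furthest. Its level at time 0 ran from 10.60 to 10.96 with a median of 10.69, and at 9 months it was 10.08 and 10.15 in the control females and 9.64 and 9.88 in the control males. On the high-fat chow it was 10.00 and 9.91 in females and 10.28 and 10.21 in males, and with resveratrol 10.01, 9.92, 9.75 and 10.08. No array at 9 months reached the time 0 range. The control difference was -0.77 (SE 0.09, adjusted p 5.75e-06), 1.70-fold lower on the intensity scale. NDUFV2, an iron-sulphur subunit at the NADH-oxidising tip of the peripheral arm, ran from 9.39 to 10.20 at time 0 (median 9.71). Its 4 control values at 9 months were 9.22, 9.16, 9.05 and 9.27, all lower, with a difference of -0.58 (SE 0.11, adjusted p 0.000479). The other complex I subunits among the largest differences were NDUFA13 (-0.52), NDUFB1 (-0.51), NDUFB5 (-0.50), NDUFA8 (-0.50) and NDUFA9 (-0.48), with adjusted p between 6.25e-05 and 0.00433. All are accessory subunits, in the membrane arm except NDUFA9, which sits where the arms join.

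The fall was spread over both arms of complex I. In the peripheral arm, which holds the redox centres, 8 of 12 subunits fell (median -0.33), and in the membrane arm, which pumps protons, 13 of 19 fell (median -0.41). NDUFAB1, the mitochondrial acyl carrier protein, which is bound to both arms, also fell (-0.27, adjusted p 0.0403). Some subunits of the peripheral arm stayed near their starting level, and they are named here because of their values. NDUFS1, the largest iron-sulphur subunit, ran from 8.66 to 9.07 at time 0 and was 8.73, 8.90, 8.66 and 8.88 in controls at 9 months. Its difference was -0.03, with a 95% interval from -0.21 to 0.14, which leaves out a fall of the size seen in NDUFV2. NDUFS3, a core subunit near the ubiquinone site, had a difference of -0.04 (SE 0.08), NDUFV3 of 0.01 (SE 0.13) and NDUFB2, of the membrane arm, of 0.07 (SE 0.09).

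In complex II, SDHA, SDHC and SDHD fell and SDHB did not. SDHC, one of the membrane anchors that bind ubiquinone, ran from 9.13 to 9.54 at time 0 (median 9.44) and was 8.84, 8.73, 8.98 and 8.95 in controls at 9 months, a difference of -0.52 (SE 0.08, adjusted p 8.29e-05). SDHD, the other anchor, ran from 10.92 to 11.31 and was then 10.81, 10.69, 10.49 and 10.83 (-0.39, SE 0.09, adjusted p 0.00324). SDHA, the flavoprotein that oxidises succinate, ran from 9.88 to 10.20 and was then 9.69, 9.57, 9.72 and 9.76 (-0.32, SE 0.07, adjusted p 0.00245). For these 3 genes the groups did not overlap. SDHB, the iron-sulphur subunit between SDHA and the anchors, ran from 11.14 to 11.47 at time 0 and was 11.32, 11.26, 11.29 and 11.45 at 9 months. All 4 values lay inside the time 0 range, and the difference was 0.01 with a 95% interval from -0.16 to 0.19. A second, dimmer SDHB probe set had a difference of -0.27 (adjusted p 0.154).

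Both measured subunits of complex III fell in controls. UQCR10, a small subunit of the membrane part, ran from 10.12 to 10.88 at time 0 and was 10.13, 10.03, 9.90 and 9.90 at 9 months, so that 1 of the 4 control values entered the time 0 range (-0.46, SE 0.12, adjusted p 0.00665). UQCRB, which binds near the ubiquinone site, ran from 10.65 to 11.01 and was then 10.68, 10.82, 10.33 and 10.46 (-0.24, SE 0.09, adjusted p 0.0372). The males were low and the females within the earlier range.

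Complex IV was divided. COX5B, a nuclear subunit that carries zinc, ran from 11.94 to 12.42 at time 0 and was 11.93, 11.61, 11.69 and 11.86 in controls at 9 months (-0.42, SE 0.08, adjusted p 0.000681). COX7C fell by 0.47 (SE 0.10, adjusted p 0.00151), COX7A2 by 0.42 (SE 0.10, adjusted p 0.00215) and NDUFA4 by 0.34 (SE 0.09, adjusted p 0.00874). Of these, COX5B and COX7A2 left the time 0 range in all 4 arrays. COX6C ran from 12.71 to 12.98 at time 0 and was 12.85, 13.00, 12.81 and 12.80 at 9 months, with a difference of 0.07 and a 95% interval from -0.07 to 0.20. COX6A1, the isoform found outside muscle, had a difference of -0.11 (SE 0.07). The muscle isoforms COX7A1 (0.15, SE 0.08) and COX8H (0.14, SE 0.08) had low levels, with means of 5.77 and 6.47, and did not pass the test. The ubiquitous COX7A2 therefore fell while its muscle counterpart COX7A1, read at a low level, had a positive difference that did not pass. The difference between the isoforms was not tested.

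Complex V had the smallest share of fallen subunits. ATP5B, the catalytic beta subunit of the F1 head, ran from 11.89 to 12.14 at time 0 (median 11.97) and was 11.64, 11.36, 11.57 and 11.73 in controls at 9 months. All 4 were below the earlier range, and the difference was -0.43 (SE 0.07, adjusted p 0.000132). ATP5A1, the alpha subunit that alternates with beta in the same head, ran from 12.53 to 12.71 and was then 12.65, 12.64, 12.62 and 12.60. Its difference was 0.01 with a 95% interval from -0.11 to 0.12, and it is named because of that value. ATP5D, the delta subunit of F1, fell by 0.27 (SE 0.09, adjusted p 0.0314), and ATP5E had a difference of -0.09 (SE 0.06). ATP5G1, ATP5G2 and ATP5G3 encode the same mature c subunit of the rotating ring. ATP5G1 fell by 0.32 (SE 0.10, adjusted p 0.0144), and ATP5G2 (-0.10) and ATP5G3 (-0.04) did not pass. In the peripheral stalk, which holds the head still, ATP5H fell by 0.27 (SE 0.10, adjusted p 0.0338), and ATP5F1 (-0.15), ATP5O (-0.09) and ATP5J (0.30) did not pass. In the membrane part ATP5L fell by 0.36 (SE 0.08, adjusted p 0.00132) and ATP5I had a difference of -0.09. ATP5L is the member whose probe sets disagreed most: the brightest, at a mean level of 11.86, fell, and the dimmest of its 3, at 6.70, rose by 0.78 (adjusted p 0.000337).

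The assembly factors of complex I also fell in controls. NDUFAF1, which helps to build the membrane arm, ran from 6.17 to 6.84 at time 0 and was 6.00, 5.65, 5.65 and 5.84 at 9 months (-0.65, SE 0.12, adjusted p 0.00031). NDUFAF3 fell by 0.33 (adjusted p 0.0074) and NDUFAF2 by 0.28 (adjusted p 0.0451). ATP5S had a difference of 0.07. Among 5 further complex I assembly genes, ECSIT (-0.38, adjusted p 0.000985) and TMEM126B (-0.46, adjusted p 0.0423) fell and 0 rose. The TMEM126B call held in 14 of 30 alternatives, with adjusted p up to 0.426. Among 10 assembly genes of complexes II to V, 4 fell and 0 rose, but 5 had positive differences and the median was -0.002. Of all probe sets 19.1% were called lower and 15.8% higher. BCS1L, which inserts the iron-sulphur protein into complex III, fell by 0.61 (adjusted p 0.000234), LYRM7, which acts in the same step, by 0.50 (adjusted p 0.00281), and CMC1, a complex IV assembly factor, by 0.46 (adjusted p 0.0107).

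Genes that feed electrons to the chain fell in part. The counts below stand beside 19.1% of all probe sets called lower and 15.8% called higher. Of 8 genes for electron carriers and ubiquinone synthesis, 5 fell and 0 rose. COQ5, a methyltransferase of ubiquinone synthesis, fell by 0.75 (adjusted p 0.000166). ETFDH, which passes electrons from fat oxidation to ubiquinone, fell by 0.43 (adjusted p 0.000354), and ETFB, a subunit of its electron donor, by 0.35 (adjusted p 0.000646). Of 15 genes of the citric acid cycle and pyruvate dehydrogenase, 8 fell and 2 rose. CS, the citrate synthase, fell by 0.46 (adjusted p 2.00e-05), SUCLG2 by 0.49 (adjusted p 0.000143) and MDH2, the mitochondrial malate dehydrogenase, by 0.45 (adjusted p 0.00105). Of 8 genes for carriers, porins and the ATP synthase inhibitor, 2 fell and 2 rose, with 3 positive differences and a median of -0.05. ATPIF1, the inhibitor, fell by 0.90 (adjusted p 0.000339), VDAC3, an outer membrane porin, fell by 0.59 (adjusted p 0.000184), and SLC25A5, an ADP/ATP carrier, rose by 0.21 (adjusted p 0.0409), a call that held in 17 of 30 alternatives. Of 5 tested regulators of mitochondrial DNA and nuclear respiratory genes, TFB1M (-0.64, adjusted p 3.96e-05) and YY1 (-0.33, adjusted p 0.000966) fell. TFAM, which packages mitochondrial DNA, rose by 0.58 (adjusted p 0.000369).

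Other markers moved with the same comparison. Of 8 proliferation markers, 7 fell in controls from time 0 to 9 months and PCNA rose, with a median difference of -0.60, and CCNB1, a mitotic cyclin, fell by 1.05 (adjusted p 0.000333). The mean of these markers ran from 9.34 to 10.10 at time 0 and from 9.10 to 9.35 in controls at 9 months. With that mean as a covariate, chosen after the data were seen, 12 members were called in place of 39, beside 20.0% of all probe sets, and the members' median difference was -0.18. All 12 were among the 39. They were NDUFC1, NDUFC2, NDUFV2, NDUFA9, NDUFA13, NDUFB5, NDUFB7, SDHC, SDHD, COX7C, ATP5B and NDUFAF1. NDUFC1 then had a difference of -0.70 and SDHC of -0.46. On the high-fat chow the proliferation markers ran from 9.54 to 10.07, with a median difference from time 0 of -0.06. The part of proliferating cells in the members' fall was not tested beyond this covariate. The covariate's values in controls at 9 months barely overlap those at time 0, so the lower count does not measure that part. T cell markers fell in 6 of 10 and rose in 0 (median -0.52), and monocyte markers rose in 2 of 8 and fell in 0. NK and cytotoxic markers fell in 2 of 4 (median -0.53) and B cell markers in 1 of 2 (median -0.55), and 0 rose in either list. The monocyte mean minus the T cell mean was -1.77 ± 0.29 (SD, n = 10) at time 0 and -1.01 ± 0.17 (SD, n = 4) in controls at 9 months. With this balance as a covariate 27 members were called, 26 of them among the 39, beside 30.9% of all probe sets. All 3 erythroid markers fell (median -1.27), and their mean level ran from 9.26 to 10.95 at time 0 and from 8.13 to 9.64 in controls at 9 months. The part of the erythroid cells in the members' fall was not tested. The actin 3' minus 5' difference, a measure of how intact the RNA or its copy is, was 1.42 ± 0.50 (SD, n = 10) at time 0 and 1.95 ± 0.65 (SD, n = 4), and 38 members were called with it as a covariate, beside 40.5% of all probe sets. Without females 6 and 10 of set A, 34 members were called, beside 34.6%.

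**Figure D3:**
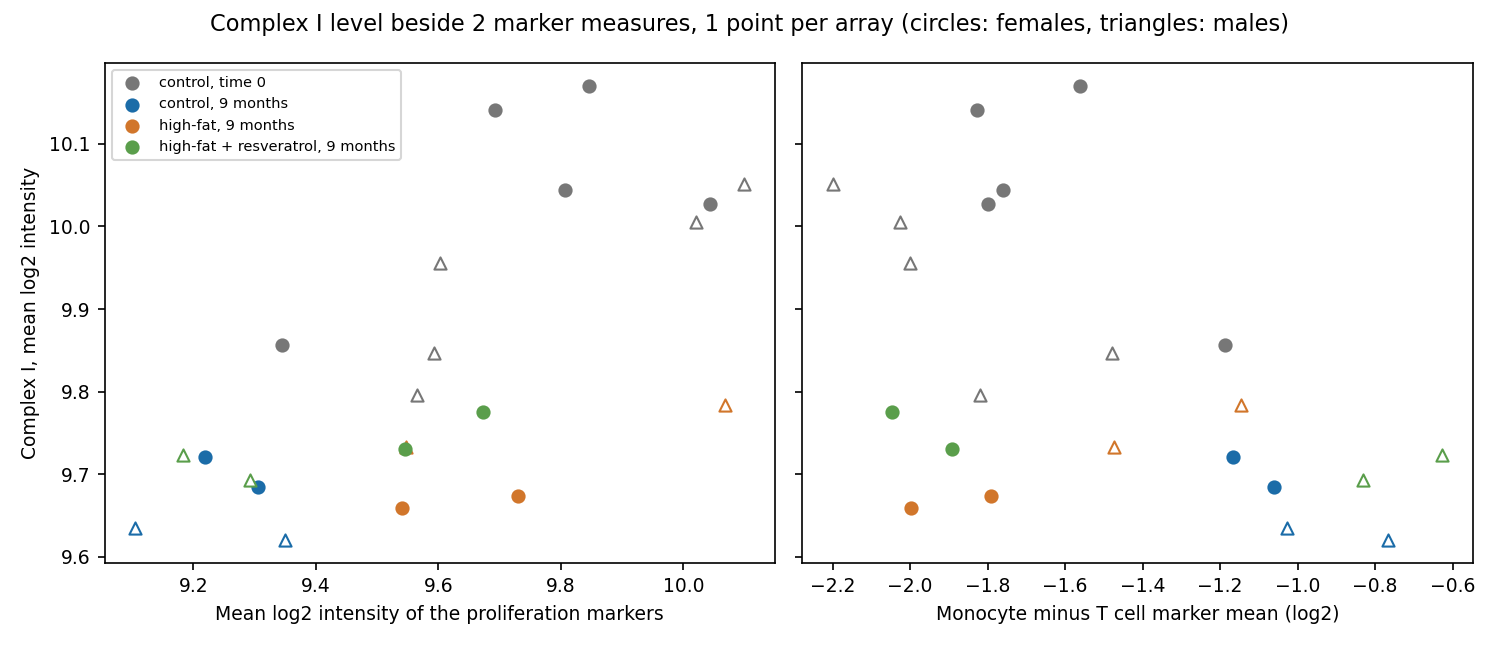
Complex I level (y axis, mean log2 intensity of 32 subunits) beside the mean of the proliferation markers (left) and the monocyte minus T cell marker mean (right), 1 point per array, with circles for females and triangles for males. Arrays of high-fat pigs lie within the time 0 range of proliferation markers. The one at 10.07 has a complex I level of 9.78, the highest among the arrays at 9 months.

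The pigs labelled as sampled at both times gave within-animal values. In female 8, 53 of the 63 members had lower levels at 9 months and 10 higher, with a median of -0.27, and in male 25 it was 43 lower and 20 higher, with a median of -0.14. The medians over all probe sets were 0.01 and -0.01. NDUFC1 was lower by 0.56 in female 8 and by 0.74 in male 25. For NDUFV2 the drops were 0.81 and 0.24, for SDHC 0.73 and 0.23, and for ATP5B 0.78 and 0.16. ATP5A1 moved by 0.01 and -0.03. In both pigs the complex V median (-0.11 and -0.03) was closer to 0 than the complex I median (-0.32 and -0.20). Male 25 had the lowest complex I level of all time 0 arrays.

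The pigs on the high-fat chow were lower than time 0 in 31 members and higher in 0, and of all probe sets 32.9% were called, 18.4% lower and 14.5% higher. Those with resveratrol were lower in 30 members and higher in 0, and of all probe sets 35.1% were called, 18.7% lower and 16.4% higher. Both comparisons use the time 0 arrays of the control comparison, so their likeness is not independent. Complex I fell in 21 and 20 of 32 subunits, complex II in 3 and 3 of 4, complex III in 0 and 0 of 2, complex IV in 2 and 2 of 8, and complex V in 2 and 3 of 13. All arrays lay below time 0 for 15 members on the high-fat chow (8.51% of all probe sets) and for 13 with resveratrol (7.73%). All lay above time 0 for 0 members in both, beside 7.09% and 7.15% of probe sets. NDUFV2 had the most negative difference on the high-fat chow (-0.65, SE 0.11, adjusted p 0.000176), followed by NDUFC1 (-0.60) and SDHC (-0.59). With resveratrol, NDUFC1 was first (-0.77, SE 0.09, adjusted p 5.15e-06), followed by NDUFAF1 (-0.58), NDUFV2 (-0.55) and SDHC (-0.50). SDHA had differences of -0.32 in controls, -0.53 on the high-fat chow and -0.44 with resveratrol. ATP5B had -0.43, -0.26 and -0.47, and COX7C -0.47, -0.19 and -0.29, of which the second did not pass. With the proliferation markers as a covariate, 32 members were called on the high-fat chow, beside 33.8% of all probe sets. With resveratrol 13 were called, beside 28.8%: 12 of the 30 that fell, and NDUFB2, which was higher (0.28, adjusted p 0.0354). T cell markers fell in 6 of 10 in both groups. On the high-fat chow 3 of 8 monocyte, 2 of 2 B cell, 2 of 4 NK and cytotoxic and 1 of 3 erythroid markers also fell. With resveratrol it was 0 of 8, 1 of 2, 0 of 4 and 2 of 3 in the same order. Of the 8 proliferation markers 1 fell on the high-fat chow and 1 rose (PCNA, 0.68, adjusted p 0.000515). With resveratrol 4 of them fell and 1 rose. Of 5 platelet markers 1 rose with resveratrol (ITGB3, 1.36, adjusted p 0.0221) and 0 fell. The part of these cells in the members' differences was not tested beyond the covariates.

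**Figure D4:**
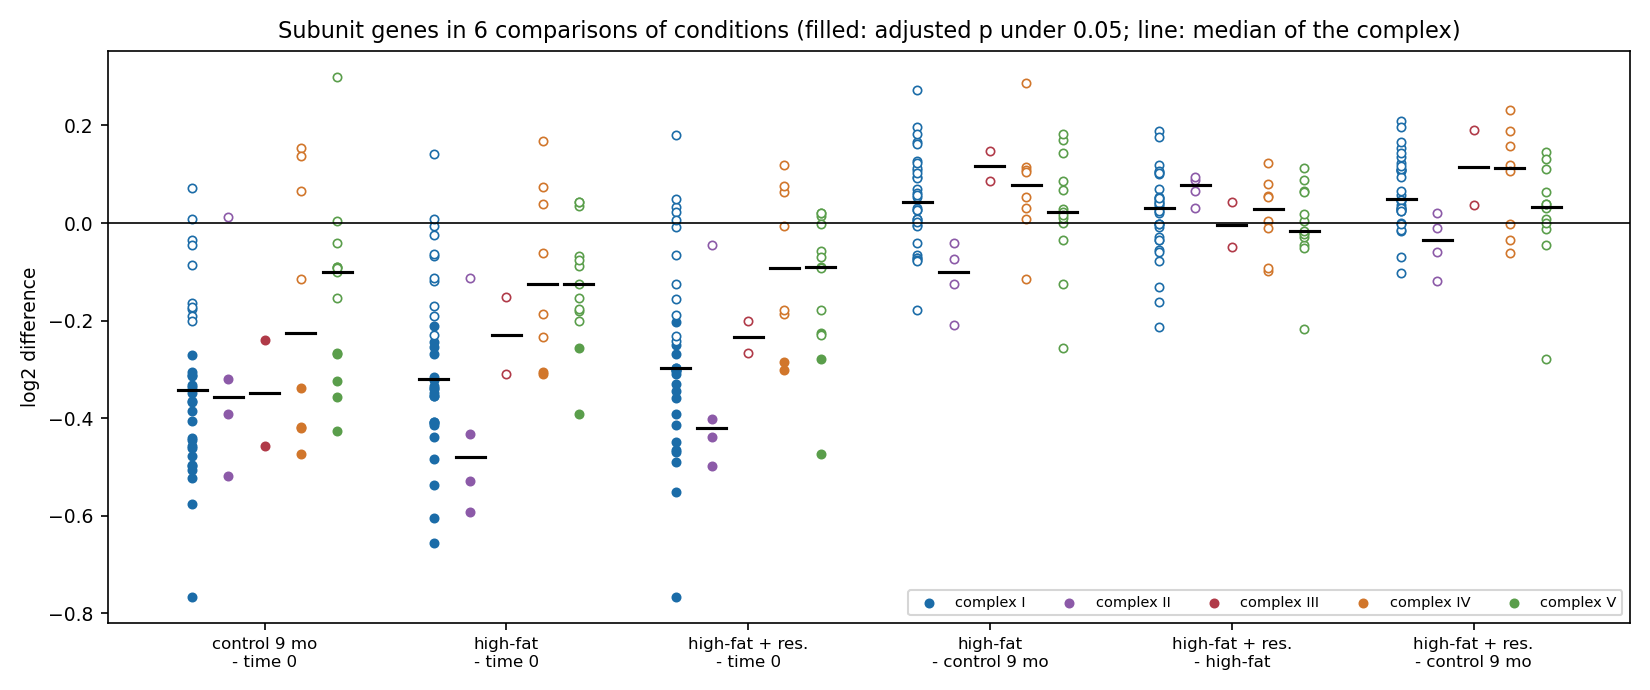
Log2 differences of the subunits of complexes I to V (y axis, 1 point per gene, colour by complex) in 6 comparisons of conditions (x axis), with a line at each complex's median. Filled points have an adjusted p under 0.05: they occur in the comparisons with time 0, all below 0, and not in the comparisons among the diets at 9 months.

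Among the 3 diets at 9 months, which carry the questions of the study on fat and on resveratrol, no member passed. In limma 0 of 63 members and 0 of 17240 probe sets had an adjusted p under 0.05 for high-fat against control, for resveratrol against high-fat, and for resveratrol against control (0% in each). At an unadjusted p under 0.05 there were 2, 1 and 0 members and 1562, 1143 and 664 probe sets. The medians over the members were 0.03, 0.03 and 0.05. The intervals bound what could have been missed: the median half-width of the 95% interval was 0.22, and 59, 62 and 61 of the 63 intervals lay wholly between -0.5 and 0.5. The high-fat arrays enter the first comparison and the second, and the control arrays the first and the third.

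The members with the smallest p at 9 months moved little. SDHA was 9.69, 9.57, 9.72 and 9.76 in controls and 9.47, 9.54, 9.42 and 9.49 on the high-fat chow, so that all high-fat values were lower. The difference was -0.21 (SE 0.09, 95% interval -0.39 to -0.02), with an adjusted p of 0.487. With resveratrol SDHA was 9.73 and 9.81 in females and 9.37 and 9.36 in males, a spread that covers both other groups. All 4 complex II genes had negative differences between high-fat and control (median -0.10), against 9 of 32 in complex I, and none passed. COX7C was 11.52, 11.82, 11.44 and 11.53 in controls and 11.87, 11.96, 11.68 and 11.95 on the high-fat chow, a difference of 0.29 (SE 0.12, adjusted p 0.489). ATP5B was 11.70, 11.75, 11.78 and 11.74 on the high-fat chow and 11.61, 11.52, 11.43 and 11.56 with resveratrol. Every resveratrol value was lower, with a difference of -0.22 (SE 0.08, 95% interval -0.39 to -0.04, adjusted p 0.728). NDUFS6, a zinc-binding subunit of complex I, had a difference of 0.19 (SE 0.09, adjusted p 0.757) between resveratrol and high-fat, and NDUFA5 one of -0.21 (SE 0.12, adjusted p 0.813). Between resveratrol and control the smallest p belonged to COX7A2 (0.23, SE 0.11), NDUFB7 (0.17, SE 0.10) and NDUFA11 (0.21, SE 0.13), each with an adjusted p of 1.00.

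Some members had arrays that did not overlap between diets, and the counts are out of 63 members. On the high-fat chow 4 members were higher than control in all arrays (NDUFA7, ATP5G1, ATP5G3 and ATP5L), beside 2.08% of all probe sets, and SDHA was lower, beside 2.97%. With resveratrol, ATP5B was lower than on the high-fat chow, beside 1.97%, and 0 were higher, beside 1.84%. With resveratrol 6 members were higher than control in all arrays (NDUFS5, COX6A1, COX7A2, NDUFA4, ATP5G1 and ATP5G3), beside 0.905%, and 0 were lower, beside 0.626%. The spread in controls was small for several of these genes: ATP5G1 was 10.27 ± 0.02 (SD, n = 4) in controls and 10.41 ± 0.05 on the high-fat chow, and ATP5G3 was 12.16 ± 0.02 and 12.24 ± 0.04. None passed the test.

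The sexes differed at time 0 in few members. In females, 56 of the 63 members had a higher mean than in males, with a median difference of 0.12 (all probe sets 0.01), but 1 passed, beside 1.07% of all probe sets (0.493% higher and 0.574% lower in females). This was NDUFB10, an accessory subunit of the membrane arm of complex I. Its 5 female values were 10.54, 10.70, 10.76, 10.94 and 10.95 and its 5 male values 10.37, 10.37, 10.48, 10.51 and 10.55, which overlap by 1 value (0.32, SE 0.08, adjusted p 0.0493). The higher female values were those of females 6 and 10, which form spike-in set A. Without them the difference was 0.21 (adjusted p 0.318), and the median over the members was 0.04. The call was also lost without any one of females 6, 8 and 10 and males 11, 12, 24 and 25, for instance at 0.28 (adjusted p 0.0993) for NDUFB10 without female 6. NDUFA9 (0.29, adjusted p 0.0575) and ATP5J (0.35, adjusted p 0.0688) came next. NDUFA1 (0.06) and NDUFB11 (0.19), which are X-linked, did not pass.

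At 9 months, over the 3 diets, 3 members were lower in females and 0 higher, beside 6.01% of all probe sets called (2.94% lower and 3.07% higher). ATP5J, coupling factor 6 of the peripheral stalk, was 9.07 and 9.17 in control females, 8.70 and 8.81 in high-fat females and 8.57 and 8.60 in females with resveratrol. In males it was 9.40 and 9.28, 9.29 and 9.09, and 9.29 and 9.34 in the same order. The sexes were apart within each diet, and the difference was -0.47 (SE 0.08, adjusted p 0.00468). NDUFA9 was 8.99 and 8.99, 8.81 and 8.76, and 8.76 and 8.73 in females, against 8.96 and 9.06, 9.20 and 9.19, and 9.21 and 9.24 in males (-0.30, SE 0.07, adjusted p 0.0129). In the controls the sexes overlapped, and in both high-fat groups they did not. SDHB was lower in females by 0.23 (SE 0.06, adjusted p 0.0193), and its call was lost without control female 8 (adjusted p 0.0597), control male 25, high-fat female 27, high-fat male 23 or resveratrol female 21. The members called, at 4.76% of 63, were below the share of all probe sets. Markers of other cells were lower in the same females: 3 of 8 monocyte markers, 2 of 5 granulocyte markers (median -0.71, with S100A9 at -1.25) and 2 of 3 erythroid markers (median -1.66, with AHSP at -2.19). Of the T cell markers 1 of 10 was higher, and of the B cell markers 1 of 2. The part of granulocytes and erythroid cells was not tested.

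The sex difference itself changed between the times in 5 members, all in the positive direction, beside 7.34% of all probe sets (3.89% positive and 3.45% negative). At 7.94% of the 63, the members were near the share of all probe sets, so the count says nothing particular of them, and their values follow as a description. The difference at time 0 minus that at 9 months was 0.81 for ATP5J (SE 0.12, adjusted p 0.00254), 0.59 for NDUFA9 (SE 0.10, adjusted p 0.00364), 0.51 for NDUFB10 (SE 0.10, adjusted p 0.00973), 0.38 for SDHB (SE 0.08, adjusted p 0.0122) and 0.31 for NDUFS3 (SE 0.09, adjusted p 0.0427). In each of them the mean of females was the higher at time 0 and the lower at 9 months. The NDUFS3 call was lost when female 6 was left out (adjusted p 0.0679), and also without most other single arrays. The monocyte minus T cell marker mean also changed its order between the sexes. Females had -1.63 ± 0.27 (SD, n = 5) at time 0 and -1.66 ± 0.43 (SD, n = 6) later. Males had -1.90 ± 0.27 (SD, n = 5) and then -0.98 ± 0.31 (SD, n = 6). With resveratrol the 2 females had -2.05 and -1.89 and the 2 males -0.83 and -0.63, the widest gap among the 3 diets. With the balance as a covariate, 0 members and 0 probe sets were called for the change of the sex difference, and 0 members for the sexes at 9 months. ATP5J then had a change of 0.40 (SE 0.16, adjusted p 0.401), SDHB of 0.36 (SE 0.14), NDUFS3 of 0.47 (SE 0.14), NDUFA9 of 0.66 (SE 0.16) and NDUFB10 of 0.78 (SE 0.15, adjusted p 0.144). The standard errors were larger than without the covariate for each of the 5.

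**Figure D5:**
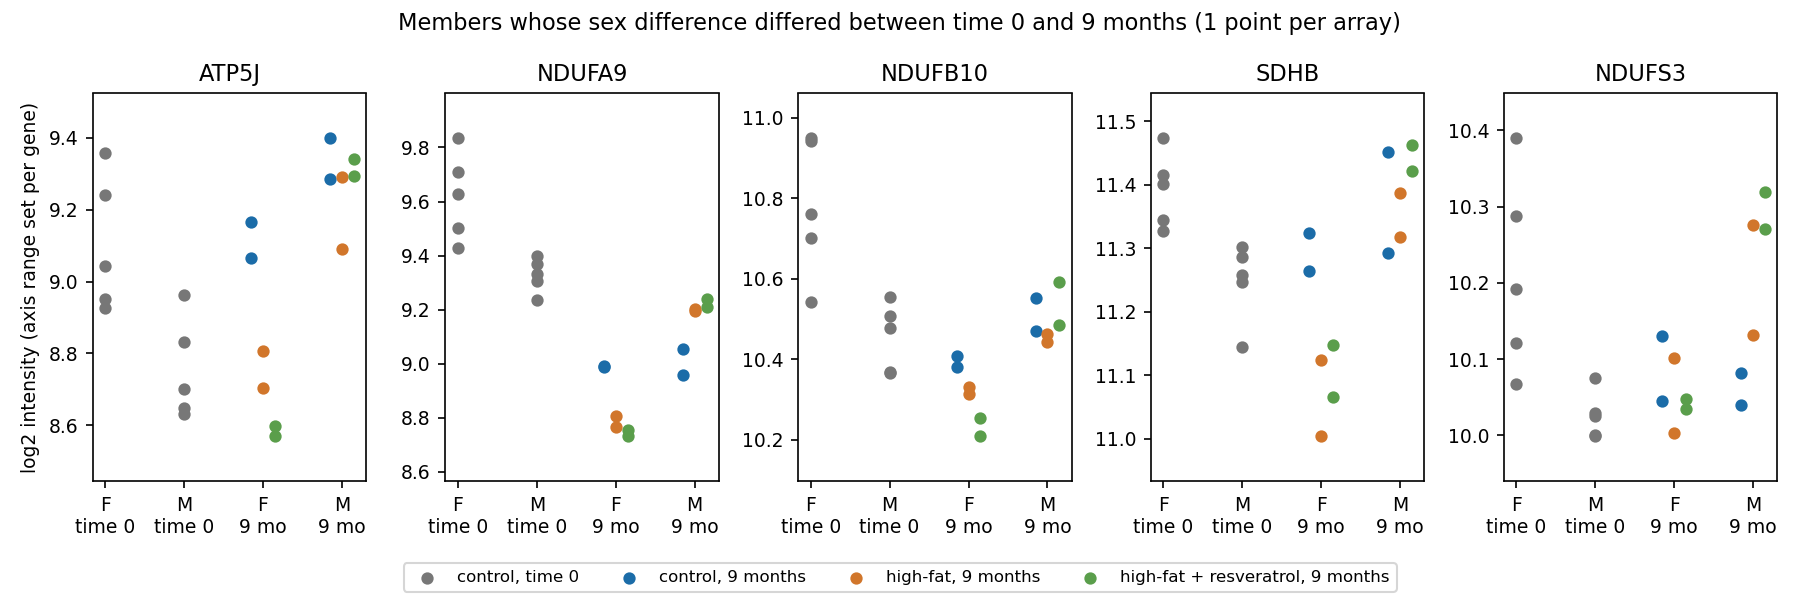
Log2 intensity (y axis, range set per gene) of the 5 members whose sex difference changed between the times, 1 point per array, by sex and time (x axis), coloured by condition. Female values lie mostly above male values at time 0, and at 9 months the lowest values are those of females on the high-fat chow with or without resveratrol, except for NDUFS3, where the sexes overlap.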

How the data were processed

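The authors deposited 1 intensity per probe set and array. The scale was taken to be linear from the range of the values and the processing notes. GCOS, RMA and Affymetrix Expression Console 1.1 are named in the submitters' processing notes. RNA came from blood mononuclear cells isolated on a Histopaque gradient, per the labels' protocols. RMA sets all arrays to one distribution, so a shift common to all genes would not be seen. Log2 was taken after a floor of 1. Of 23999 probe sets without controls, 17240 had a level above 5 in at least 2 arrays and were tested. Symbols came from the array's annotation, and all 63 were found unchanged in a pig gene table (Sscrofa11.1, used for names alone).

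Fits used limma 3.58.1 (R 4.3.3): condition plus sex over all 22 arrays, and 8 group means of condition and sex for the sex comparisons. The fits were run on simulated data with changes between the control groups alone. Recovery of a sex difference was not simulated. Tests were two-sided, with Benjamini-Hochberg adjustment. Replicates are pigs, and pigs 8 and 25 enter at both times. In their profiles, centred on their groups, the same pig correlated at -0.056 and 0.199, so the pairing rests on the labels. The number of arrays limits the precision.

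Genes were named by a rule: members past the threshold, at most 10 per direction, or the 3 with the smallest p. Besides these, the rule took the 3 leading members of each complex, its highest and lowest, tissue isoforms, and 3 per pathway list. The non-overlapping members were named because of their values, as were other members outside the rule, to complete their complex. The members, lists and rule were chosen with earlier results of these data known. Alternatives covered the filter, offset, normalization, design, blocks, weights, spike-in sets, marker covariates and leaving out each array.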

Additional observations from a re-analysis of the deposited data

Results flagged for a closer look

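In 5 members the sex difference changed between time 0 and 9 months by limma's test of that change: ATP5J (0.81), NDUFA9 (0.59), NDUFB10 (0.51), SDHB (0.38) and NDUFS3 (0.31). These are 7.94% of the 63, near the 7.34% of all probe sets. With the monocyte minus T cell marker balance as a covariate, 0 of them and 0 of 17240 probe sets were called. The changes were then 0.40 for ATP5J, 0.66 for NDUFA9, 0.78 for NDUFB10, 0.36 for SDHB and 0.47 for NDUFS3.

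In 6 of 160 sets of group values, a single array stood apart from the rest of its group by Dixon's ratio, a rate near the 1 in 20 that chance gives. NDUFC1 was highest in time 0 female 6, at 10.96, with the next array at 10.76. COX6A1 was lowest in control female 8 at 9 months, at 12.13, with the next at 12.18. COX7A2 was lowest in control male 25 at 9 months, at 11.13, with the next at 11.31. NDUFB4, an accessory subunit of complex I, was highest in control female 18 at 9 months, at 11.58, with the next at 11.47. NDUFAF1 was lowest in high-fat female 27, at 5.74, with the next at 5.95. NDUFB7 was highest in high-fat male 23, at 9.82, with the next at 9.62.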

How the results depend on the processing

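The count of fallen members was 39 in controls, 31 on the high-fat chow and 30 with resveratrol. Leaving out each array in turn gave 32 to 41, 21 to 35 and 21 to 34, while the calls over all probe sets ran from 4867 to 6087, 4311 to 5716 and 4847 to 6067. With the proliferation markers as a covariate 12 members were called in controls and 13 with resveratrol, of which 12 were lower and NDUFB2 higher. The count of the F test over the 4 conditions ran from 33 to 39 without single arrays, and the diet comparisons at 9 months stayed at 0 members in every setting run. Over all probe sets, the reported fit gave 0 calls for high-fat against control. The count was 18 with 8 group means, 18 without control female 8 and 68 with array weights. Male 23 is the only high-fat array in set C, so counts within that set are not given for comparisons with the high-fat group.

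The count for the sexes at time 0 (1) was 0 with no filter, median centring, an additive sex term, the time 0 arrays alone, array weights, the spike-in set as a term, set B alone, the actin covariate, and without set A. It was 2 with the stricter filter (above 6 in 4 arrays) and with an offset of 16, and 0 to 3 without single arrays. At 9 months the count (3) was 0 with an additive sex term, 1 with the mean of a gene's probe sets, and 0 with the monocyte minus T cell covariate, and 2 to 4 without single arrays. The change of the sex difference (5) was 0 with that covariate and 4 to 7 without single arrays. An additive sex term, which joins both times, turned the time 0 values of NDUFA9 (-0.034), ATP5J (-0.10) and the monocyte marker AIF1 (-0.093). NDUFA5 between resveratrol and high-fat was 0.032 within set D, where female 21 is the only resveratrol array. CD86 between control times was -0.020 with the monocyte minus T cell covariate. The causes were not tested.

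With pig as a replicate block the counts were 39, 31 and 30 against time 0, 0 in each diet comparison, 37 in the F test, and 1, 3 and 5 for the sex comparisons, so the block changed no count by more than 1. Complex levels moved by less than 1 SD in all 450 alternatives. These were other normalizations, an offset, the mean of a gene's probe sets, and leaving out each array. Leaving out 1 array cannot move a group mean by 1 SD, so those settings could not have shown such a move. Marker covariates, blocks and spike-in sets were not applied to the complex levels.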
